A study of Mus musculus with 10 samples.

Results

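The 52 genes described here encode proteins that license DNA for replication and build the replication fork. Their RNA was measured on 10 single-channel Agilent arrays in RAW264.7, a virus-transformed mouse line with macrophage character. The groups were Dex (dexamethasone), FF (fluticasone furoate), VSG22, VSGC12 and EtoH, with 2 arrays each. All 4 glucocorticoids were given at 100 nM, 1 hour ahead of 1 µg/ml lipopolysaccharide (LPS, from the outer membrane of bacteria, which activates macrophages), and RNA was taken after 16 hours in LPS. Whether the EtoH cells, read here as the solvent group, received LPS is not said in the labels, nor is it said whether the 2 replicates of a group were separate cultures, so p-values measure the spread between these arrays, which may be technical. The genes were chosen by name: those encoding the MCM helicase and its loaders, the origin recognition complex, the fork polymerases and their accessory proteins, with an array probe under that name or an older one. All 52 of the 36315 genes named on the array had a probe (64 probes in all), and 51 passed the filter on dim signal, as did 18056 genes of the array. Cdc7, the catalytic subunit of the kinase that fires licensed origins, gave no signal well above background with either of its 2 probes and has no value here.

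Replication starts from origins that are licensed before S phase. The origin recognition complex (ORC) binds the origin and, with Cdc6 and Cdt1, loads the ring of Mcm2 to Mcm7 onto DNA, while geminin blocks Cdt1 once replication is under way. Kinases then attach Cdc45 and the GINS complex to the ring, which makes the active CMG helicase, and polymerases alpha, epsilon and delta copy the strands behind it with the sliding clamp PCNA, the RFC clamp loader and the single-strand binding protein RPA. Many of these genes are transcribed at the entry to S phase under E2F transcription factors. Macrophages in culture divide in response to growth factors, and LPS is known to hold back their division.

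Promoters of 5 of these genes are shown because they span the range of responses described below and of E2F-type letters. The E2F-type letters were searched in the spelling TTCCCGC first, then as TTGGCGC, in the third spelling as TTGCCGC, and in the last spelling as TTCGCGC. Both strands were searched, overlapping matches were counted separately, and matches stand in capitals in the windows. Each window runs from 250 bases before to 50 bases after the start of the gene, is read 5′ to 3′ on the gene's own strand, and comes from RefSeq on GRCm38.p6. Mcm6 (chr1:128359656-128359955, minus strand) holds 5 matches, Cdt1 (chr8:122567765-122568064, plus strand) 2, Cdc6 (chr11:98907901-98908200, plus strand) 1, Lrr1 (chr12:69168564-69168863, plus strand) 1 and Mcm10 (chr2:5012742-5013041, minus strand) 0.
Mcm6: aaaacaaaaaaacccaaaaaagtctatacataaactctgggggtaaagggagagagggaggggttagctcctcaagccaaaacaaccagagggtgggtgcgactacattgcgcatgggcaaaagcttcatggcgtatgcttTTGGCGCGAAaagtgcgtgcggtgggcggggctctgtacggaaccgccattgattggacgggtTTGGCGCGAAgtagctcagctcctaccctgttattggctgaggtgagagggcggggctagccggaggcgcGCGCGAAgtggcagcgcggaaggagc
Cdt1: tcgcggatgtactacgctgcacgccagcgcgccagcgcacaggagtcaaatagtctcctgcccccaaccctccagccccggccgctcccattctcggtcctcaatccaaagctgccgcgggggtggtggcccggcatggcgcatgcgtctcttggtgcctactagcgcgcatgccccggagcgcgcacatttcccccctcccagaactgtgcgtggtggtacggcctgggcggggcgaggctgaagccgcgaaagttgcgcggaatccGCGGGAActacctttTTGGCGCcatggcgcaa
Cdc6: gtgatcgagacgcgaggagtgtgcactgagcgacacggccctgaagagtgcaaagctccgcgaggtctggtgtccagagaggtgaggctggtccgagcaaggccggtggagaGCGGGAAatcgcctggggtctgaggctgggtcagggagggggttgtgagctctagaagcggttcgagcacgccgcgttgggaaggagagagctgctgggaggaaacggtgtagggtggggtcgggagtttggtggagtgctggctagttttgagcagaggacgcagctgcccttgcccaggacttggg
Lrr1: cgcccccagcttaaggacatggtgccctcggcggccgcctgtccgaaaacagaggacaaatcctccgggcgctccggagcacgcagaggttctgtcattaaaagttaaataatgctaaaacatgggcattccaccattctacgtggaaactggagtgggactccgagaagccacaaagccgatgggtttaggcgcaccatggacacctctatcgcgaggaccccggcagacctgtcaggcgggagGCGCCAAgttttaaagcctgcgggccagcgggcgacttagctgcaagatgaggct
Mcm10: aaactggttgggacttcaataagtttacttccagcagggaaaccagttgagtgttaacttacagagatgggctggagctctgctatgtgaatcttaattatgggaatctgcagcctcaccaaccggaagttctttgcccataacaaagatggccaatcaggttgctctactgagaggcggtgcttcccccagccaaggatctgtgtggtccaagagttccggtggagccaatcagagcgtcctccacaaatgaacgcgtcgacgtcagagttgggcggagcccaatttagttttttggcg

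Levels are given as log2 processed signal minus the array's own 75th percentile, so a level of 0 stands at that percentile, and levels of different genes are not set against each other. A difference is tested with limma over all genes on the array, and a gene is called where its p-value, adjusted over all genes in that comparison, is under 0.05. Between 40.1% and 44.4% of the spots were well above background, and 0 were saturated. Replicate arrays correlated at 0.983 for Dex and up to 0.995 in the other groups, and the Dex arrays differed most from each other (SD of the difference 0.631, against 0.327 to 0.409 elsewhere). The arrays lie on 2 slides with each group once on each. All 8 macrophage markers, Csf1r and Cd68 among them, were well above background on all 10 arrays. So were Elane of the neutrophil and mast cell markers, Cd3e of the T cell markers and Lum of the fibroblast markers. Of the 3 B cell and the 4 epithelial markers, 0 were measured on any.

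Replication genes were higher in the glucocorticoid groups than in EtoH. Over the mean of the 4 glucocorticoid groups against EtoH, 42 of the 51 measured genes were called higher, 2 were called lower and 7 were not called, with a median log2 difference of 1.02, where the median of all genes tested was -0.004. Of all 18031 genes tested, 21.6% were called higher and 22.5% lower. Differences of at least 2-fold upward were called for 26 of the 51, against 4.68% of all genes. The same 42 lay higher on all 8 glucocorticoid arrays than on both EtoH arrays, a separation that 22.9% of all genes showed. Another 2 lay lower on all 8, against 24.7% of all genes. Of the 42, Lrr1, Cdc6, Mcm8 and Clspn passed the filter on dim signal only through glucocorticoid groups, where they are high. In bulk RNA, more cells in S phase and more transcript per cell cannot be told apart. If the EtoH cells received no LPS, glucocorticoid and LPS cannot be told apart either, in this or any other comparison with EtoH.

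**Figure D1:**
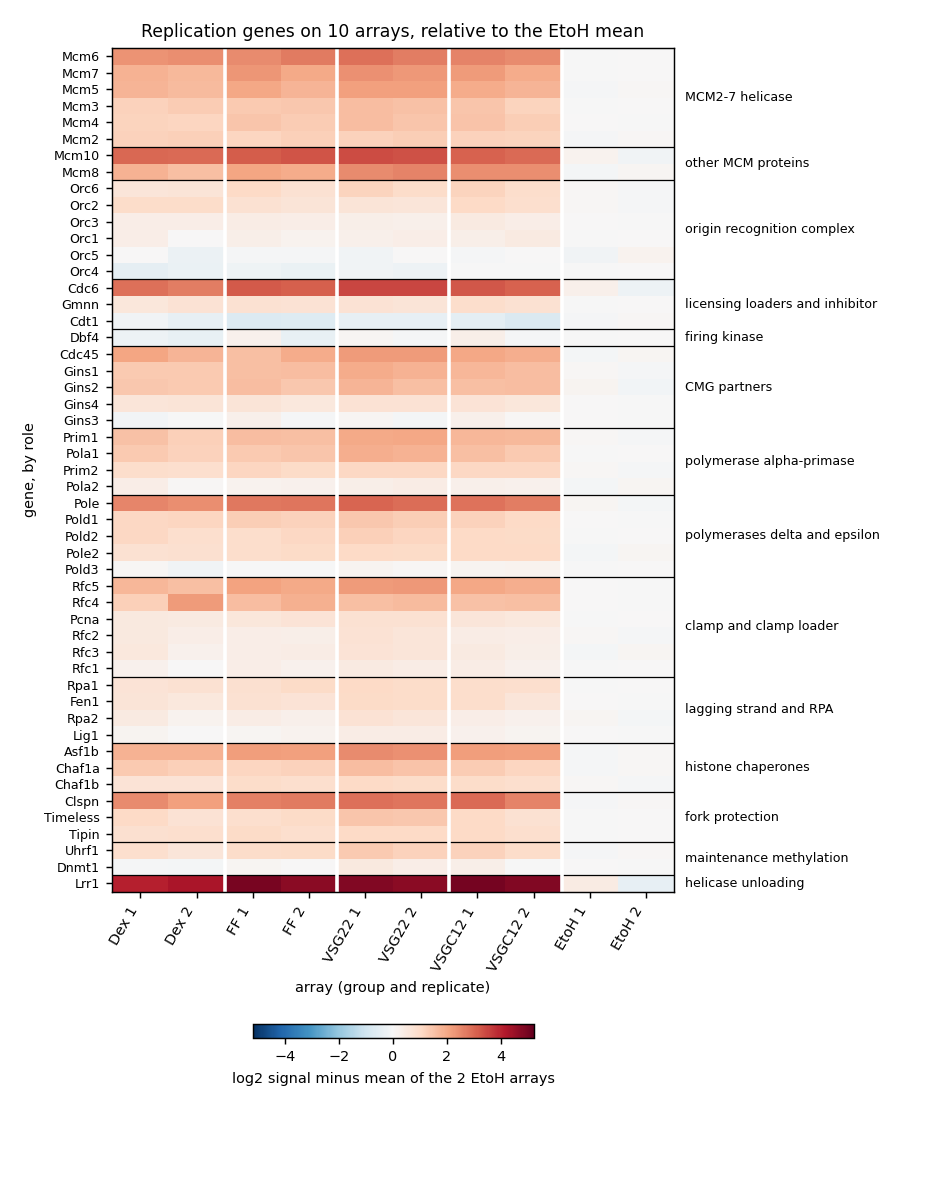
Log2 signal of the 51 measured replication genes (rows, grouped by role) on each of the 10 arrays (columns), minus the mean of the 2 EtoH arrays; red is above and blue below that mean. Most rows are red across all 8 glucocorticoid arrays, Lrr1 deepest, while the Cdt1 and Orc4 rows are pale blue.

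All 6 subunits of the MCM2-7 ring rose, by log2 1.20 (Mcm2) to 2.56 (Mcm6), with a median of 1.64. Mcm6 read 5.76 and 5.85 on the Dex arrays, 5.87 and 6.13 on the FF arrays, 6.27 and 6.08 on the VSG22 arrays, 6.01 and 5.89 on the VSGC12 arrays, against 3.41 and 3.44 on the EtoH arrays. All 8 glucocorticoid values lay well above both EtoH values, a 5.9-fold difference (log2 2.56 ± 0.09 SE, adjusted p = 7.9e-06). The Mcm6 probe lies at chr1:130228178-130228237 on mm9, the build of the array files, for which no annotation of exons or untranslated regions was used here. Mcm7 read 2.81 and 2.71 on the Dex arrays, 3.29 and 2.99 on the FF arrays, 3.40 and 3.25 on the VSG22 arrays, 3.22 and 2.94 on the VSGC12 arrays, against 1.01 and 1.01 on the EtoH arrays. It was 4.19-fold higher (log2 2.07 ± 0.11 SE, adjusted p = 3.0e-05), with no overlap between glucocorticoid and EtoH arrays. Mcm2 had the smallest rise of the 6 and read 3.70 and 3.76 on the Dex arrays, 3.62 and 3.75 on the FF arrays, 3.72 and 3.80 on the VSG22 arrays, 3.69 and 3.65 on the VSGC12 arrays, against 2.45 and 2.57 on the EtoH arrays, close to even across the compounds. The remaining subunits rose by log2 1.90 (Mcm5), 1.37 (Mcm3) and 1.37 (Mcm4).

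Both MCM proteins outside the ring rose as well. Mcm10, which helps to activate the helicase and to recruit polymerase alpha, read 2.93 and 2.90 on the Dex arrays, 3.09 and 3.22 on the FF arrays, 3.36 and 3.27 on the VSG22 arrays, 3.04 and 2.90 on the VSGC12 arrays, against 0.12 and -0.20 on the EtoH arrays. That is 8.74-fold higher (log2 3.13 ± 0.10 SE, adjusted p = 5.0e-06), and its promoter window is the one above without an E2F-type match. The window ends in ttggcg, the opening letters of TTGGCGC, and a match cut by the edge is not counted. Mcm8, the partner of Mcm9 in a helicase for break repair and stalled forks, read -2.09 and -2.34 on the Dex arrays, -1.85 and -1.96 on the FF arrays, -1.42 and -1.33 on the VSG22 arrays, -1.48 and -1.48 on the VSGC12 arrays, against -3.97 and -3.81 on the EtoH arrays. Neither EtoH array had Mcm8 well above background. On the processed signal its rise is therefore given as an approximate bound of at least 3.50-fold over the 4 groups. The adjusted p of 1.2e-05 from limma is that of the measured difference, not of the bound. For each compound the bound was at least 2.52-fold (Dex), 3.13-fold (FF), 4.52-fold (VSG22) and 4.20-fold (VSGC12). Such a bound sets the mean of the glucocorticoid arrays against the lowest signal that counts as well above background on the EtoH arrays. Detection was flagged spot by spot, so a dim probe could read above that lowest signal, and the bound is not a strict limit. It applies to that probe and that background correction alone. With normexp, another background correction, Mcm8 differed by log2 0.90, below the bound, and its second measured probe gave 1.59.

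The origin recognition complex changed less, and its subunits moved in both directions. Of its 6 subunits 3 rose, 1 fell and 2 were not called, with a median of 0.31. Orc6 read 3.11 and 3.18 on the Dex arrays, 3.51 and 3.28 on the FF arrays, 3.66 and 3.45 on the VSG22 arrays, 3.65 and 3.40 on the VSGC12 arrays, against 2.55 and 2.42 on the EtoH arrays. All glucocorticoid values were above both EtoH values, a 1.89-fold difference (log2 0.92 ± 0.11 SE, adjusted p = 7.3e-04). Orc2 rose by log2 0.82 and Orc3 by 0.35, while Orc1, the large subunit that cells replace each cycle, missed the threshold (log2 0.28 ± 0.10 SE, adjusted p = 0.067). The Orc3 call rests on the brighter of 2 measured probes, as the other differed by log2 0.36 (adjusted p = 0.23), and it was lost with the mean of both probes (adjusted p = 0.066) and with the array median subtracted (adjusted p = 0.11).

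Orc4 and Orc5 showed no rise. Orc4 read -0.91 and -0.79 on the Dex arrays, -0.68 and -0.81 on the FF arrays, -0.65 and -0.70 on the VSG22 arrays, -0.49 and -0.48 on the VSGC12 arrays, against -0.47 and -0.45 on the EtoH arrays. All 8 glucocorticoid values were lower than both EtoH values, and the small difference was called (log2 -0.23 ± 0.06 SE, adjusted p = 0.024). That call rests on the brighter of 2 measured Orc4 probes, at chr2:48792316-48792375 on mm9; the other, at chr2:48758811-48758870, differed by log2 0.37 (adjusted p = 0.21). With the mean of both probes the Orc4 difference was 0.07, and the call was lost under 7 other alternatives, among them leaving out either EtoH array. Orc5 read -0.53 and -0.84 on the Dex arrays, -0.60 and -0.61 on the FF arrays, -0.74 and -0.54 on the VSG22 arrays, -0.62 and -0.52 on the VSGC12 arrays, against -0.74 and -0.35 on the EtoH arrays, so its EtoH arrays spanned nearly the whole range (log2 -0.08 ± 0.13 SE, adjusted p = 0.64).

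The proteins that load and restrain the helicase moved in both directions. Cdc6, the loader that joins ORC at the origin, read -0.16 and -0.35 on the Dex arrays, 0.19 and 0.11 on the FF arrays, 0.45 and 0.45 on the VSG22 arrays, 0.22 and 0.06 on the VSGC12 arrays, against -2.74 and -3.28 on the EtoH arrays. It was 8.76-fold higher (log2 3.13 ± 0.14 SE, adjusted p = 1.5e-05). Its probe was well above background on only 1 of the 2 EtoH arrays, and with normexp the difference was log2 1.93. Gmnn, which encodes geminin, rose by log2 0.74.

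Cdt1, which loads the MCM ring together with Cdc6, fell. Its signal was 6.54 and 6.33 on the Dex arrays, 6.0 and 6.08 on the FF arrays, 6.30 and 6.31 on the VSG22 arrays, 6.21 and 6.0 on the VSGC12 arrays, against 6.68 and 6.79 on the EtoH arrays. Every glucocorticoid value was lower than both EtoH values, by 1.43-fold over the mean of the 4 (log2 -0.51 ± 0.09 SE, adjusted p = 0.0037). The call was kept under 20 of 21 alternatives and lost when the array median was subtracted in place of the 75th percentile (log2 -0.39, adjusted p = 0.21). By compound, Cdt1 was called lower with FF (log2 -0.69), VSG22 (-0.43) and VSGC12 (-0.63), and not with Dex (log2 -0.30 ± 0.11 SE, adjusted p = 0.079). Its promoter window, printed above, carries 2 E2F-type matches. Dbf4, the activating subunit of the origin-firing kinase, read 0.66 and 0.54 on the Dex arrays, 1.15 and 0.55 on the FF arrays, 1.04 and 0.89 on the VSG22 arrays, 1.24 and 0.86 on the VSGC12 arrays, against 0.91 and 0.96 on the EtoH arrays, and its FF replicates alone spanned more than the difference tested (log2 -0.07 ± 0.16 SE, adjusted p = 0.76).

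**Figure D2:**
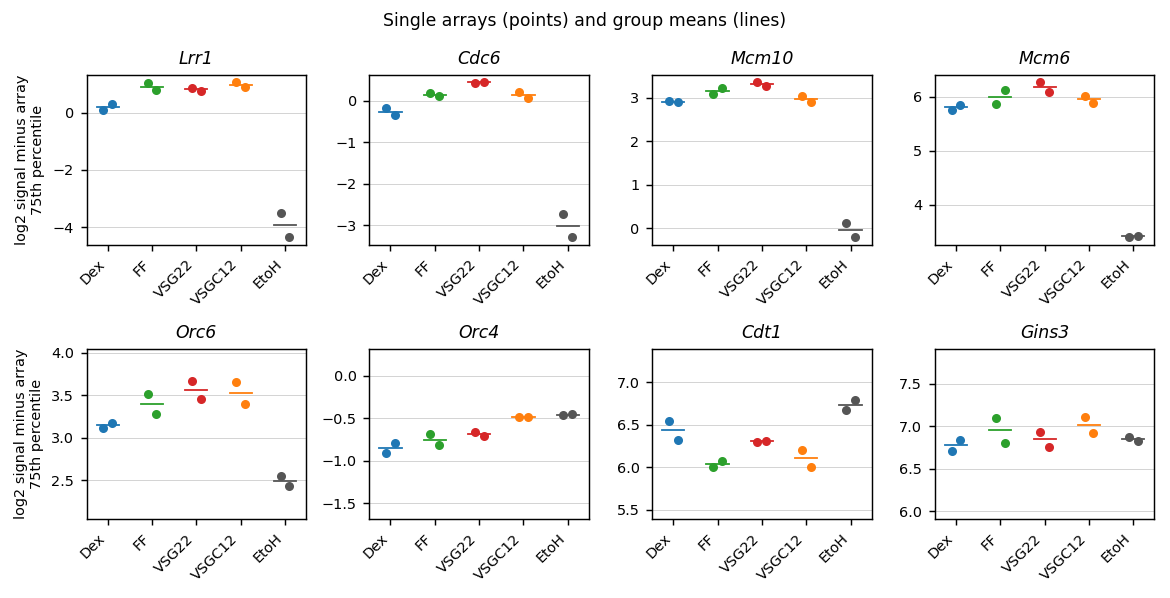
Log2 signal minus the array's 75th percentile for 8 replication genes, with a point for each array, a line for each group mean and a separate vertical scale for each panel. Lrr1, Cdc6, Mcm10, Mcm6 and Orc6 lie higher on all 8 glucocorticoid arrays than on both EtoH arrays, Orc4 and Cdt1 lie lower on all 8, and Gins3 overlaps.

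Of the CMG partners, Cdc45 and 3 of the 4 GINS subunits rose. Cdc45 read -0.66 and -0.96 on the Dex arrays, -1.14 and -0.78 on the FF arrays, -0.50 and -0.52 on the VSG22 arrays, -0.71 and -0.83 on the VSGC12 arrays, against -2.84 and -2.59 on the EtoH arrays. Its difference of 3.87-fold (log2 1.95 ± 0.13 SE, adjusted p = 6.5e-05) separated every glucocorticoid array from both EtoH arrays, and with normexp it was log2 1.08. Gins1, Gins2 and Gins4 rose by log2 1.62, 1.54 and 0.67. Gins3, a subunit of the same complex, read 6.71 and 6.84 on the Dex arrays, 7.10 and 6.81 on the FF arrays, 6.94 and 6.75 on the VSG22 arrays, 7.11 and 6.92 on the VSGC12 arrays, against 6.88 and 6.83 on the EtoH arrays. The EtoH values lay inside the range of the glucocorticoid values, and no difference was called (log2 0.04 ± 0.10 SE, adjusted p = 0.74).

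Polymerase alpha-primase, which lays down the primers, had 3 of 4 subunits higher. Prim1, the catalytic primase subunit, read 3.0 and 2.73 on the Dex arrays, 3.08 and 3.05 on the FF arrays, 3.43 and 3.46 on the VSG22 arrays, 3.21 and 3.17 on the VSGC12 arrays, against 1.53 and 1.42 on the EtoH arrays. It was 3.18-fold higher (log2 1.67 ± 0.08 SE, adjusted p = 2.2e-05). Pola1, the catalytic polymerase subunit, read 1.95 and 1.76 on the Dex arrays, 1.94 and 2.01 on the FF arrays, 2.48 and 2.38 on the VSG22 arrays, 2.13 and 1.95 on the VSGC12 arrays, against 0.57 and 0.58 on the EtoH arrays, and the VSG22 arrays were its highest. That is log2 1.50 over the mean of the 4, next to 1.03 for Prim2. Pola2, the accessory subunit, read -0.35 and -0.63 on the Dex arrays, -0.51 and -0.48 on the FF arrays, -0.39 and -0.33 on the VSG22 arrays, -0.45 and -0.50 on the VSGC12 arrays, against -0.83 and -0.58 on the EtoH arrays and was not called (log2 0.25 ± 0.09 SE, adjusted p = 0.07).

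Among the leading- and lagging-strand polymerases 4 of 5 subunits rose. Pole, the catalytic subunit of polymerase epsilon, read 1.75 and 1.62 on the Dex arrays, 1.95 and 2.01 on the FF arrays, 2.23 and 2.09 on the VSG22 arrays, 2.04 and 1.89 on the VSGC12 arrays, against -0.70 and -0.89 on the EtoH arrays. A 6.7-fold difference (log2 2.74 ± 0.09 SE, adjusted p = 4.9e-06) set all glucocorticoid arrays above EtoH. Pold1, the catalytic subunit of polymerase delta, rose by log2 1.20, with Pold2 at 1.04 and Pole2 at 0.96. Pold3, an accessory subunit of polymerase delta, read 2.50 and 2.26 on the Dex arrays, 2.42 and 2.40 on the FF arrays, 2.58 and 2.51 on the VSG22 arrays, 2.59 and 2.64 on the VSGC12 arrays, against 2.40 and 2.47 on the EtoH arrays, within the spread of its own replicates (log2 0.05 ± 0.08 SE, adjusted p = 0.6).

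All 6 genes of the clamp and its loader were called higher, most of them by little (median 0.54). Rfc5 read 2.67 and 2.48 on the Dex arrays, 3.02 and 2.90 on the FF arrays, 3.16 and 3.17 on the VSG22 arrays, 2.94 and 2.83 on the VSGC12 arrays, against 0.96 and 0.90 on the EtoH arrays. It was 3.91-fold higher (log2 1.97 ± 0.08 SE, adjusted p = 9.9e-06). Rfc4 rose by log2 1.65, with Dex replicates far apart at 4.55 and 5.53, and its second probe gave 1.22. Pcna, the sliding clamp itself, rose by 0.63. Rfc2 read 2.11 and 1.96 on the Dex arrays, 1.97 and 1.92 on the FF arrays, 2.39 and 2.27 on the VSG22 arrays, 2.02 and 1.98 on the VSGC12 arrays, against 1.70 and 1.55 on the EtoH arrays, a difference of 0.46, and Rfc3 rose by 0.45. The Rfc2 call was lost under 1 of 21 alternatives and that of Rfc3 under 3 (highest adjusted p 0.056 for Rfc2 and 0.12 for Rfc3), among them leaving out EtoH replicate 1 for Rfc3. Rfc1, the large subunit of the loader, read 3.43 and 3.24 on the Dex arrays, 3.57 and 3.43 on the FF arrays, 3.70 and 3.62 on the VSG22 arrays, 3.59 and 3.43 on the VSGC12 arrays, against 3.19 and 3.24 on the EtoH arrays, and its second Dex array lay just above the EtoH arrays. Its small call (log2 0.29 ± 0.08 SE, adjusted p = 0.027) was lost under 7 of 20 alternatives, and its probe lies in a patch of locally shifted signal on a Dex array, as does that of Timeless.

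Lagging-strand and single-strand binding genes were all 4 called higher, with a median of 0.59. Rpa1, the large RPA subunit, read 5.86 and 5.96 on the Dex arrays, 5.98 and 6.17 on the FF arrays, 6.20 and 6.13 on the VSG22 arrays, 6.07 and 6.05 on the VSGC12 arrays, against 5.13 and 5.19 on the EtoH arrays. It was 1.85-fold higher (log2 0.89 ± 0.07 SE, adjusted p = 1.6e-04), and its second probe gave 0.58. Fen1, the flap nuclease, rose by log2 0.78 and Rpa2 by 0.41, a call lost under 3 of 21 alternatives, leaving out EtoH replicate 2 among them (adjusted p = 0.15). Lig1, the ligase that joins Okazaki fragments, read 4.12 and 3.99 on the Dex arrays, 4.06 and 4.14 on the FF arrays, 4.35 and 4.34 on the VSG22 arrays, 4.16 and 4.09 on the VSGC12 arrays, against 3.96 and 3.96 on the EtoH arrays. Its difference of 0.20 was the smallest called (adjusted p = 0.039) and was lost under 12 of 21 alternatives.

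The 3 histone chaperone genes rose. Asf1b, which hands histones to the fork, read 2.60 and 2.61 on the Dex arrays, 2.94 and 2.90 on the FF arrays, 3.24 and 3.17 on the VSG22 arrays, 2.97 and 2.93 on the VSGC12 arrays, against 0.73 and 0.84 on the EtoH arrays. It was 4.4-fold higher, and every glucocorticoid value stood above both EtoH values (log2 2.14 ± 0.06 SE, adjusted p = 3.7e-06). Chaf1b read 3.98 and 3.98 on the Dex arrays, 4.22 and 4.13 on the FF arrays, 4.32 and 4.21 on the VSG22 arrays, 4.25 and 4.15 on the VSGC12 arrays, against 3.32 and 3.23 on the EtoH arrays and rose by log2 0.88, while Chaf1a, the other CAF-1 subunit here, rose by 1.31. On its second probe Chaf1b rose by 0.52.

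Fork protection genes rose in all 3 cases. Clspn, which encodes the checkpoint adaptor claspin, read -1.63 and -1.96 on the Dex arrays, -1.49 and -1.40 on the FF arrays, -1.25 and -1.31 on the VSG22 arrays, -1.17 and -1.52 on the VSGC12 arrays, against -4.18 and -4.02 on the EtoH arrays. Since neither EtoH array had Clspn well above background, its rise on the processed signal is given as an approximate bound of at least 4.25-fold. Again the adjusted p of 1.9e-05 from limma is that of the measured difference. The bound does not carry over to normexp, where the difference was log2 1.01. Timeless, which travels with the fork and steadies it, read 2.52 and 2.25 on the Dex arrays, 2.38 and 2.49 on the FF arrays, 2.93 and 2.88 on the VSG22 arrays, 2.53 and 2.27 on the VSGC12 arrays, against 1.45 and 1.53 on the EtoH arrays, highest with VSG22, and rose by log2 1.04. On its second probe Timeless rose by 1.27. Tipin, its binding partner, read 4.66 and 4.68 on the Dex arrays, 4.79 and 4.69 on the FF arrays, 4.87 and 4.83 on the VSG22 arrays, 4.87 and 4.69 on the VSGC12 arrays, against 3.80 and 3.84 on the EtoH arrays and rose by 0.94.

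The pair that copies DNA methylation onto new strands was split. Uhrf1, which recognises hemimethylated sites, read 2.88 and 2.66 on the Dex arrays, 2.96 and 2.99 on the FF arrays, 3.39 and 3.19 on the VSG22 arrays, 3.20 and 2.96 on the VSGC12 arrays, against 1.96 and 2.07 on the EtoH arrays and was 2.02-fold higher (log2 1.02 ± 0.10 SE, adjusted p = 3.8e-04). On a second probe, well above background on 4 arrays, Uhrf1 rose by log2 1.06. Dnmt1, the methyltransferase it recruits, read 0.09 and 0.04 on the Dex arrays, 0.23 and 0.15 on the FF arrays, 0.65 and 0.48 on the VSG22 arrays, 0.45 and 0.11 on the VSGC12 arrays, against 0.15 and 0.12 on the EtoH arrays and was not called (log2 0.14 ± 0.10 SE, adjusted p = 0.28).

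Lrr1, the substrate receptor that marks the helicase for removal when forks meet, had the highest difference of the 51 on the processed signal. Its signal was 0.11 and 0.31 on the Dex arrays, 1.02 and 0.78 on the FF arrays, 0.87 and 0.75 on the VSG22 arrays, 1.06 and 0.90 on the VSGC12 arrays, against -3.51 and -4.34 on the EtoH arrays. The glucocorticoid and EtoH values lay far apart, a difference of 25.1-fold (log2 4.65 ± 0.20 SE, adjusted p = 1.4e-05). Lrr1 was well above background on 1 of the 2 EtoH arrays, so the size is uncertain: it was log2 5.06 when EtoH replicate 1 was left out, 4.24 when EtoH replicate 2 was, and 2.76 with normexp, where Mcm10 stood above it at 2.84. A second Lrr1 probe, at chr12:70272887-70272946 against chr12:70279571-70279630 for the first, both on mm9, gave 3.61.

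Each glucocorticoid was also compared with EtoH on its own, and most of the genes rose with each. Dex had 38 of the 51 genes called higher and 1 lower, FF 38 and 2, VSG22 43 and 1, and VSGC12 38 and 1. Over all genes tested the shares called higher were 16.5% (Dex), 17.9% (FF), 16.1% (VSG22) and 17.2% (VSGC12), and those called lower were 15.7% (Dex), 19.2% (FF), 14.5% (VSG22) and 18.3% (VSGC12). The median differences of the 51 genes were log2 0.90 with Dex, 0.96 with FF, 1.07 with VSG22 and 1.03 with VSGC12. All 4 comparisons share the EtoH arrays, and 38 genes were called higher in each, against 11% of all genes. Of the genes called lower, Orc4 passed with Dex (log2 -0.39) and FF (-0.29), where VSG22 gave -0.22 and VSGC12 -0.03, neither of them called.

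**Figure D3:**
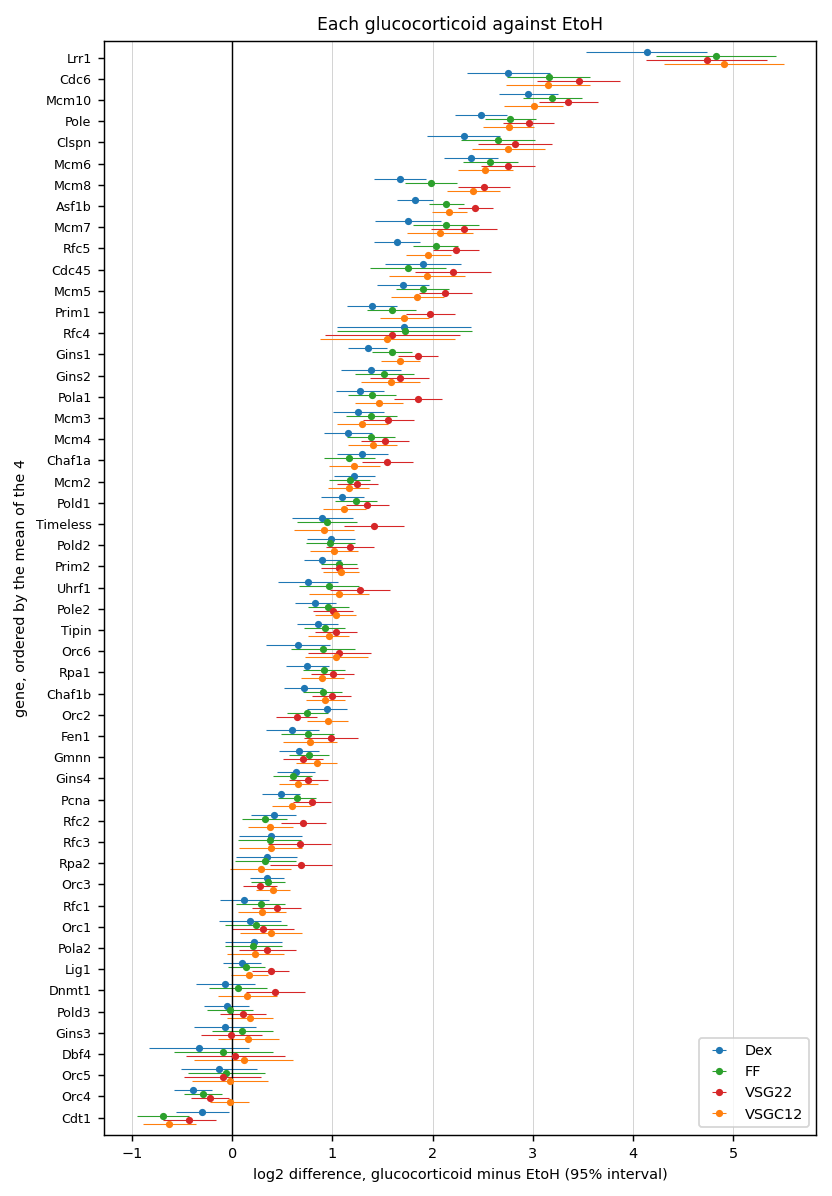
Log2 difference of each glucocorticoid from EtoH for the 51 measured genes, with 95% intervals from limma, ordered by the mean of the 4. Most points lie right of 0 for all 4 compounds, with red (VSG22) often furthest right and blue (Dex) furthest left, and Cdt1 and Orc4 lie left of 0.

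Rfc3, Rpa2, Rfc1, Dnmt1 and Lig1 were called higher with VSG22 and not with the other 3 compounds. Their log2 differences from EtoH were 0.67 for Rfc3, 0.69 for Rpa2, 0.44 for Rfc1, 0.43 for Dnmt1 and 0.38 for Lig1. With Dex they were 0.38 for Rfc3, 0.34 for Rpa2, 0.12 for Rfc1, -0.07 for Dnmt1 and 0.10 for Lig1. Tested directly, the difference of VSG22 from Dex was not called for any of them (adjusted p from 0.13 for Dnmt1 to 0.33 for Rfc3).

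Array by array, the mean over the 51 genes stood above the EtoH mean by log2 1.06 and 0.98 for Dex, 1.17 and 1.13 for FF, 1.36 and 1.30 for VSG22, and 1.26 and 1.13 for VSGC12, with the EtoH arrays at 0.005 and -0.005. The second Dex array, the lowest, had 42 genes above both EtoH arrays, against 42.2% of all genes, and the first VSG22 array had 48, against 42.2% of all genes. Within slide 1, 49 of the 51 genes were higher over the 4 glucocorticoids (median 1.04, against 0.0017 for all genes), and within slide 2, 45 were (median 0.90, against -0.011 for all genes).

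The compounds were given at the same dose and time, so all 6 pairs could be compared, and few single genes differed. Dex and FF are both fluorinated steroids, and FF carries a furoate ester and a fluoromethyl thioester that dexamethasone lacks. FF against Dex called 0 of the 51 genes in either direction, where 0.0721% of all genes were called higher and 0.299% lower. At an unadjusted p under 0.05 there were 8 of the 51, or 15.7%, close to the 14.4% of all genes. The lowest p-values were those of Asf1b (log2 0.31, interval 0.14 to 0.49, adjusted p = 0.18), Rfc5 (log2 0.38, interval 0.16 to 0.61, adjusted p = 0.19) and Cdt1 (log2 -0.40, interval -0.66 to -0.13, adjusted p = 0.22). Cdt1 read 6.0 and 6.08 with FF, against 6.54 and 6.33 with Dex. Intervals here and below are 95% intervals, and a p-value above the threshold does not show that compounds act alike.

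VSG22 against Dex was the pair with called genes: 2 were higher and 0 lower, where 0.194% of all genes were called higher and 0.36% lower. Mcm8 read -1.42 and -1.33 with VSG22, against -2.09 and -2.34 with Dex (log2 0.84, interval 0.58 to 1.10, adjusted p = 0.036). Asf1b read 3.24 and 3.17 with VSG22, against 2.60 and 2.61 with Dex (log2 0.60, interval 0.43 to 0.78, adjusted p = 0.033). Rfc5 came next, at 3.16 and 3.17 with VSG22, against 2.67 and 2.48 with Dex (log2 0.59, interval 0.36 to 0.82, adjusted p = 0.064). Neither call is firm: adjusted over all 6 pairs together, p was 0.074 for Mcm8 and 0.063 for Asf1b, and over 21 alternatives Mcm8 kept its call in 4 (adjusted p from 0.0083 to 0.22) and Asf1b in 7 (0.019 to 0.39). With the slide, which same-numbered arrays share, as a replicate block, the adjusted p was 0.052 for Mcm8, 0.045 for Asf1b and 0.049 for Rfc5.

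The small differences between VSG22 and Dex ran mostly upward. Over the 51 genes the median of VSG22 minus Dex was log2 0.30, where the median of all genes was 0.02, and 29 genes passed an unadjusted p under 0.05, against 16.7% of all genes. All of the 29 but Orc2 were higher with VSG22, where 8.36% of all genes tested both passed this p and were higher. Those were 1508 of the 3016 genes that passed it in either direction. Both VSG22 arrays were above both Dex arrays for 41 of 51 genes, against 27.9% of all genes, and below both for 3, against 22.7%. Within slide 1 the median was 0.34 and within slide 2 it was 0.31, with 45 of the 51 genes above 0 on each. Orc2 was the exception, at 1.34 and 1.29 with VSG22, against 1.61 and 1.62 with Dex (log2 -0.30, interval -0.50 to -0.10, adjusted p = 0.17). Members of a pathway are not independent replicates, so these counts describe the arrays and carry no p-value.

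**Figure D4:**
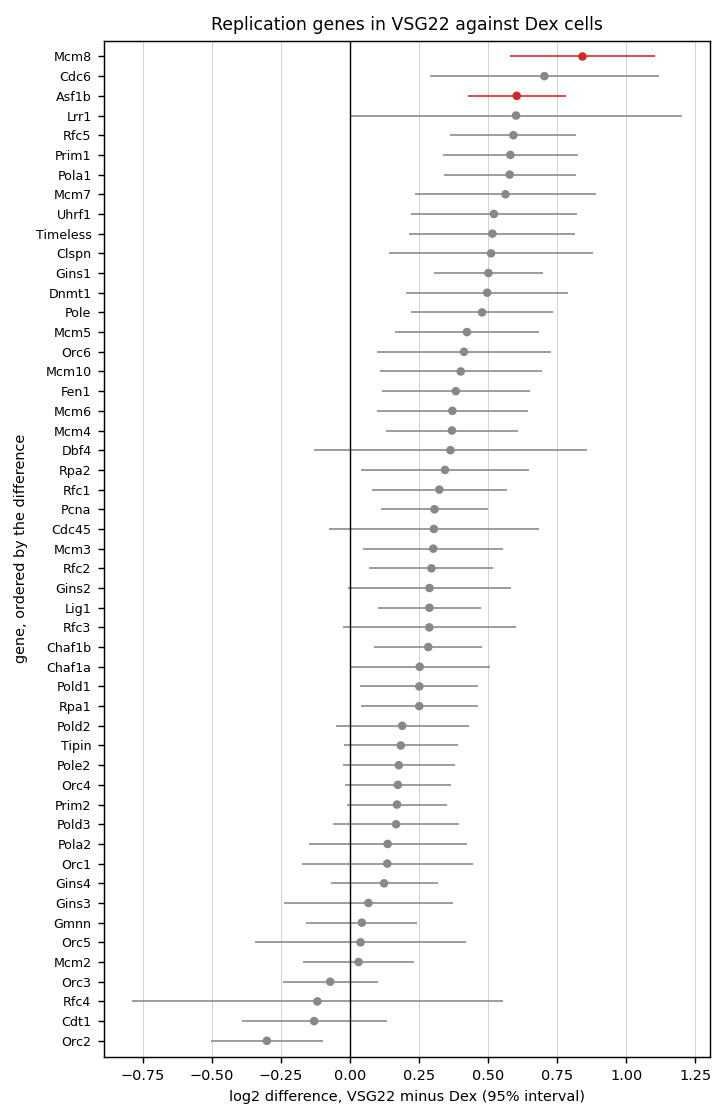
Log2 difference of VSG22 from Dex for the 51 measured genes, with 95% intervals from limma; red marks the genes called at an adjusted p under 0.05. Points run from Orc2 at -0.30 to Mcm8 at 0.84, most lie right of 0, and Mcm8 and Asf1b are the red ones.

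By these medians VSGC12 stood between VSG22 and Dex. VSGC12 against Dex called 0 of 51 genes, where 0.061% of all genes were called higher and 0.333% lower, and 17 passed an unadjusted p under 0.05, against 14.8% of all genes. The median was log2 0.18, and the lowest p-values were those of Mcm8 (log2 0.73, interval 0.47 to 1.0, adjusted p = 0.068), Asf1b (0.34) and Orc4 (0.37). For Mcm8, VSGC12 gave -1.48 and -1.48, against -2.09 and -2.34 with Dex. For Orc4, VSGC12 gave -0.49 and -0.48, against -0.91 and -0.79 with Dex.

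VSGC12 against VSG22 also called 0 genes, where 0% of all genes were called, and 16 of the 51 passed an unadjusted p under 0.05, against 7.15% of all genes. The median was log2 -0.16. Timeless was lower with VSGC12, at 2.53 and 2.27, against 2.93 and 2.88 with VSG22, though not past the threshold (log2 -0.50, interval -0.80 to -0.20, adjusted p = 0.68). Pola1 differed by -0.39 and Orc2 by 0.31. Both VSGC12 arrays lay below both VSG22 arrays for 32 of 51 genes, against 24.6% of all genes.

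Comparisons with FF called none of the 51. In VSGC12 against FF, where 0.00555% of all genes were called lower and 0% higher, 3 passed an unadjusted p under 0.05, close to the 4.21% of all genes. They were Mcm8 (log2 0.42, interval 0.16 to 0.68, adjusted p = 0.99), Orc4 (0.26) and Orc2 (0.20). In VSG22 against FF, where 0% of all genes were called, 14 passed an unadjusted p under 0.05, against 9.47% of all genes. The lowest p-values were those of Mcm8 (log2 0.53, interval 0.27 to 0.79, adjusted p = 0.52), Pola1 (0.46) and Rfc2 (0.38). Rfc2 read 2.39 and 2.27 with VSG22, against 1.97 and 1.92 with FF.

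A single test over the 4 compounds, limma's F-test, called 0 of the 51 genes, where 0.255% of all genes were called (the lowest adjusted p of the 51 was 0.095). At an unadjusted p under 0.05 there were 21 of the 51, against 13.5% of all genes. In the order of the group means VSG22 was highest of the 4 for 37 of the 51 genes, against 31.4% of all genes, and Dex was lowest for 38, against 31.2%. VSG22 was highest for all 6 genes of the MCM2-7 ring. In the origin recognition complex VSGC12 was highest for 5 of 6, a count for which no share of all genes is given. The unadjusted F-test p of these 6 ran from 0.015 (Orc4) to 0.905 (Orc5), and none was called. No 2 compounds differed past the threshold for any of the 51 genes, next to each other in these orders or not, except VSG22 and Dex for Mcm8 and Asf1b, the calls described above as not firm.

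The promoter windows were read for E2F-type letters over all the genes. RefSeq windows were found for 43 of the 52 genes, 55 windows in all. A match was held by 33 of the 55 (60%), against 9.57% of all 32851 windows, and several matches by 13 (23.6%), against 1.18%. The CCAAT box (CCAAT, both strands) was in 30 (54.5%), against 37.4% of all windows. A match is a description of letters and not a binding site, and neighbouring alternative starts of a gene share letters.

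Genes with and without such letters had close medians. The 28 measured genes with a match had a median log2 difference of 0.99, from -0.51 (Cdt1) to 4.65 (Lrr1), and 22 were called higher. Those 14 without one had a median of 0.98, from -0.08 (Orc5) to 3.13 (Mcm10), and 11 were called higher. Gins3 and Pold3, which were not called, each hold a match, and Mcm6 holds 5.

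**Figure D5:**
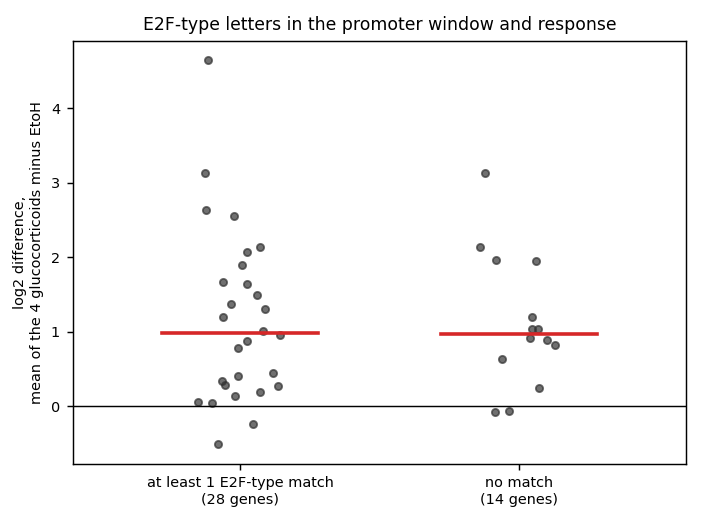
Log2 difference of the mean of the 4 glucocorticoids from EtoH for measured genes with (28) and without (14) an E2F-type match in a promoter window; points are genes, red lines are medians, and sideways scatter has no meaning. The medians are 0.99 and 0.98, and both sets span called and uncalled genes.

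Other replication genes moved the same way, less uniformly. Of 34 listed beside the 52, 33 were measured, 24 were called higher and 2 lower, with a median of log2 0.53. Of all genes tested, 21.6% were called higher and 22.5% lower. Traip, the ubiquitin ligase that acts on stalled helicases, rose by 2.88, Chtf18 and Dscc1 of the alternative clamp loader by 2.62 and 2.33, Top2a, the topoisomerase that untangles DNA, by 2.33, and Ticrr, which helps to fire origins, by 1.97. Dtl, the adaptor through which Cdt1 is destroyed in S phase, rose by 1.96. Mcm9, the partner of Mcm8, fell by 0.54, and Mms22l, a fork repair factor, fell by 0.70.

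Mitotic genes moved with them: 19 of 19 measured, of 20 listed, were called higher, against 21.6% of all genes, with a median of 2.29. Kif11 and Ttk among them were well above background on only 8 arrays, with EtoH means of -5.54 and -5.51. Aspm and Ndc80 were so on 9, with EtoH means of -3.76 and -2.75. A gene dim in EtoH can pass the filter on dim signal only where it is high, which favours a higher call. The differences of these genes were log2 3.43 (Kif11), 3.16 (Ttk), 3.90 (Aspm) and 2.74 (Ndc80). The 8 macrophage markers were mixed. Csf1r (log2 1.18), Itgam (1.29) and Lyz2 (0.94) were called higher and Adgre1 (-0.24) lower. Cd68 (0.18), Cd14 (0.03), Fcgr3 (-0.16) and Spi1 (-0.07) were not called. Their summed level, in which bright probes weigh most, was between 608 and 676 on the glucocorticoid arrays, in multiples of the array's 75th percentile. On the EtoH arrays it was 497 and 499. Of neutrophil and mast cell markers, 2 of 5 were measured, Elane and Tpsb2, with a summed level between 37.9 and 136 on the glucocorticoid arrays, against 30.3 and 39.3 on the EtoH arrays. Both were called higher, Elane by log2 1.12 (limma adjusted p = 0.045) and Tpsb2 by 0.57 (limma adjusted p = 0.0010). Among the rest, 1 of 3 T cell and 2 of 4 fibroblast markers were measured, with summed levels of at most 1.13 and 0.53. The part of these shifts in the replication genes was not tested.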

How the data were processed

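RNA was measured in 10 samples (5 groups of 2 arrays); groups come from the sample labels. Per the file headers, each deposited file was written by Agilent Feature Extraction 10.7.3.1 in intensity units and holds a processed signal corrected for background within the array and not scaled between arrays. The submitters' processing notes name limma without a step. Spots flagged non-uniform or outlying were left out, log2 processed signals were averaged per probe, and the 75th percentile of each array's non-control probes was subtracted. A gene is represented by its brightest probe among those that, in at least 1 group, were well above background on both arrays; 2 probes carrying a synonym of Gmnn but another gene's accession were left out. All groups were fitted together with limma 3.58.1 in R 4.3.3 (lmFit, eBayes, group as the only term; tested on simulated data), two-sided, with Benjamini-Hochberg adjustment over all genes within a comparison. The 75th percentiles ran from 375 to 537 intensity units, and the number of arrays limits the precision. Named genes were the 10 highest and 3 lowest differences, every gene called lower, the highest and lowest of each role, and the 3 lowest p-values of each pair. The genes, lists and tests were chosen with earlier results of these data known. Same-numbered replicates lay on the same slide, but their deviations correlated from -0.0446 to 0.317 between groups, so they were not treated as pairs.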

Additional observations from a re-analysis of the deposited data

How the results depend on the processing

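Over the 20 or 21 alternatives that bear on each comparison, the count of replication genes called higher ranged from 36 to 44 for the mean of the 4 glucocorticoids, 29 to 39 for Dex, 33 to 40 for FF, 34 to 43 for VSG22 and 35 to 40 for VSGC12, each against EtoH. The smaller counts moved. With the array median subtracted, which shifted the median of all genes to 0.12 and the upward share of all calls to 70.4% (49.0% with the 75th percentile, 38.6% with the percentile over detected probes), 0 genes were called lower in any comparison with EtoH and 0 higher in VSG22 against Dex, and Dbf4 and Orc5 turned to 0.054 and 0.044. Quantile normalization called 1 gene higher in VSGC12 against Dex and turned Gins3 and Pold3 to -0.042 and -0.026; the percentile over detected probes called 2 lower for Dex and 2 for VSG22 and turned Gins3 and Pold3 to -0.037 and -0.030. With normexp, 2 were lower for Dex, 1 higher in FF against Dex, 0 in VSG22 against Dex and 1 in VSGC12 against Dex, and Orc5 turned to 0.016. Without the filter on dim probes, 1 gene was lower for the mean of the 4, 0 for Dex, 1 for FF and 0 for VSG22, and 0 higher in VSG22 against Dex. The mean over probes gave 1, 0 and 1 lower for the mean of the 4, Dex and FF, 1 higher in VSG22 against Dex, and Orc4 at 0.071. Without both Dex arrays 1 gene was lower for the mean of the 4 and Dbf4 stood at 0.020. Without probes in patches on Dex arrays, and with p adjusted over the 6 pairs together, 0 were higher in VSG22 against Dex. With a trended, robust variance, 1 was lower for the mean of the 4, 2 for Dex and 1 for FF, and 5 higher in VSG22 against Dex.

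Leaving out single arrays, genes called lower numbered 1 to 2 for the mean of the 4, 0 to 2 for Dex, 1 to 2 for FF and 0 to 1 for VSG22. VSG22 against Dex had 0 to 7 higher, with 7 only without Dex replicate 1, and 0 to 1 lower; VSGC12 against Dex had 0 to 1 in each direction, and the F-test 0 to 1. Orc5 ranged from -0.27 to 0.12 (without EtoH replicate 1 and 2) and Dbf4 from -0.14 to 0.0070 (without FF replicate 1 and 2). With the replicate block (slide as a term) 42 genes were higher and 2 lower for the mean of the 4, and no count of calls moved by over 1.5 times, but in VSG22 against Dex the 2 genes called were Asf1b and Rfc5, with Mcm8 lost (adjusted p = 0.052). The cause of these changes was not tested. Calls of Lig1, Rfc1 and Orc4 were the least stable, lost in 12 of 21, 7 of 20 and 7 of 21 alternatives, with Orc4 reversed in 1 more. Signals near background limit the sizes of Lrr1, Cdc6, Mcm8 and Clspn.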
